A study of Solanum lycopersicum x Solanum pennellii and Solanum lycopersicum with 17 samples.

Results

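Expansins were measured in tomato carpels 7 days after pollination with 7 probe sets, which are those whose symbol in the platform annotation is EXP or LeEXP followed by a digit. They are EXP1, EXP2, EXP5, exp9, exp11, EXP12 and exp18, 7 of the 10101 probe sets tested and of the 909 that carry a symbol. Each gene has a single probe set. The annotation also holds 6 probe sets for genes of the same family under EXPA symbols (EXPA3, EXPA4, EXPA6 with 2, EXPA8 and EXPA10), which the rule leaves out and which are described separately.

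Carpels of greenhouse-grown plants were used, and the RNA of each sample was biotin-labelled and read on an Affymetrix array, a chip on which sets of short probes each report a transcript. The lines, with 4 arrays of IL-1_1, 3 of IL-1_4 and 4 of IL-2_3, are introgression lines, in which a segment of a chromosome of the wild species Solanum pennellii replaces that of the cultivar M82. They were set against M82 (6 arrays), labelled as the parental line and as a seed control. The design text calls the lines hybrids, so whether the plants carried 1 or both copies of the segment is not settled. Nothing in the labels ties replicates to different plants, and the spread behind every p-value may therefore be technical.

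Expansins are small secreted proteins of the plant cell wall. They loosen the wall without cutting its polymers, by weakening the contacts between cellulose and the matrix around it, and they act best in the acid wall of a growing cell. A tomato fruit grows after pollination first by cell division and then mainly by cell expansion, and different members of the family are known from growing tissue, from germinating seed and from ripening fruit. EXP1 is the ripening-related member that is known for its part in fruit softening. EXP2 is known as an auxin-responsive gene of elongating tissue, EXP5 from growing green fruit, and exp18 from meristems and very young organs.

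The labelled tissue was checked against symbols of markers. Of 7 carpel and young fruit symbols 2 were on the array: TAGL1, a MADS-box gene of carpels, lay between 10.8 and 11.2 on the log2 scale on all 17 arrays, and fsm1, a gene of very young fruit, between 8.64 and 13.04. The 3 pollen receptor kinase probe sets (PRK1, PRK2 and PRK3) lay between 3.69 and 5.01, close to the array minima (3.31 to 3.60). Of 8 ripening symbols 4 were on the array: RIN, a MADS-box gene required for ripening, lay at 3.79 to 4.24, E8 at 4.94 to 5.65 and ACS2, an ethylene synthesis gene, at 5.49 to 6.67, while 3 probe sets of the carotenoid gene Psy1 ran from 4.46 to 10.67. The summed level of the ripening list was 10.7 to 11.3 in IL-1_1, 10.5 to 10.8 in IL-1_4, 10.5 to 10.9 in IL-2_3 and 10.3 to 10.97 in M82. In that sum the brightest Psy1 probe set, at 9.78 to 10.67, weighed most. The summed level of the carpel markers was 12.8 to 13.4 in IL-1_1, 11.85 to 12.5 in IL-1_4, 11.8 to 12.3 in IL-2_3 and 11.4 to 13.1 in M82. TAGL1 averaged 10.94 in IL-1_1 and IL-1_4, 11.14 in IL-2_3 and 10.96 in M82. The differences of the carpel sum between groups thus lay mainly in fsm1. Array medians differed little (9.96 to 10.04), and correlations were 0.950 to 0.996 between arrays of a group and 0.913 to 0.991 between groups. The main axis of variation within groups, the first principal component of the deviations from group means, held 47.3% of that variance. IL-1_1 replicate 1, IL-2_3 replicate 4 and M82 replicate 1 lay at its high end. Fits without these 3 arrays are a setting that was chosen after the data were seen.

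The means of most expansins were lowest in IL-1_1. Its mean was the lowest of the 4 groups for EXP1, EXP2, EXP5, exp9, EXP12 and exp18, that is for 6 of 7 members, and the highest for exp11. Over all probe sets tested, IL-1_1 was the lowest group for 43.1%. None of the 7 was called against M82 in any line, where a call is an adjusted p below a false discovery rate of 0.05 in limma's moderated test. EXP1, EXP12 and exp18 were called lower in IL-1_1 than in IL-1_4, by 1.82-fold, 2.18-fold and 1.34-fold, and EXP12 also lower than in IL-2_3, by 2.29-fold. The young fruit marker fsm1 averaged 12.62 in IL-1_1, 11.23 in IL-1_4, 11.14 in IL-2_3 and 10.61 in M82. It was called higher in IL-1_1 than in M82 (log2 change 2.01 ± 0.59, SE, limma adjusted p = 0.0393), beside 6.4% of all probe sets. Against IL-1_4 (adjusted p = 0.162) and IL-2_3 (0.191) it was not called. The part of fsm1 in the expansin differences was not tested. In RNA from carpels, fewer cells of a type and less RNA per cell cannot be told apart. Values of different probe sets depend on their probes, so levels are compared only between groups for the same gene.

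**Figure D1:**
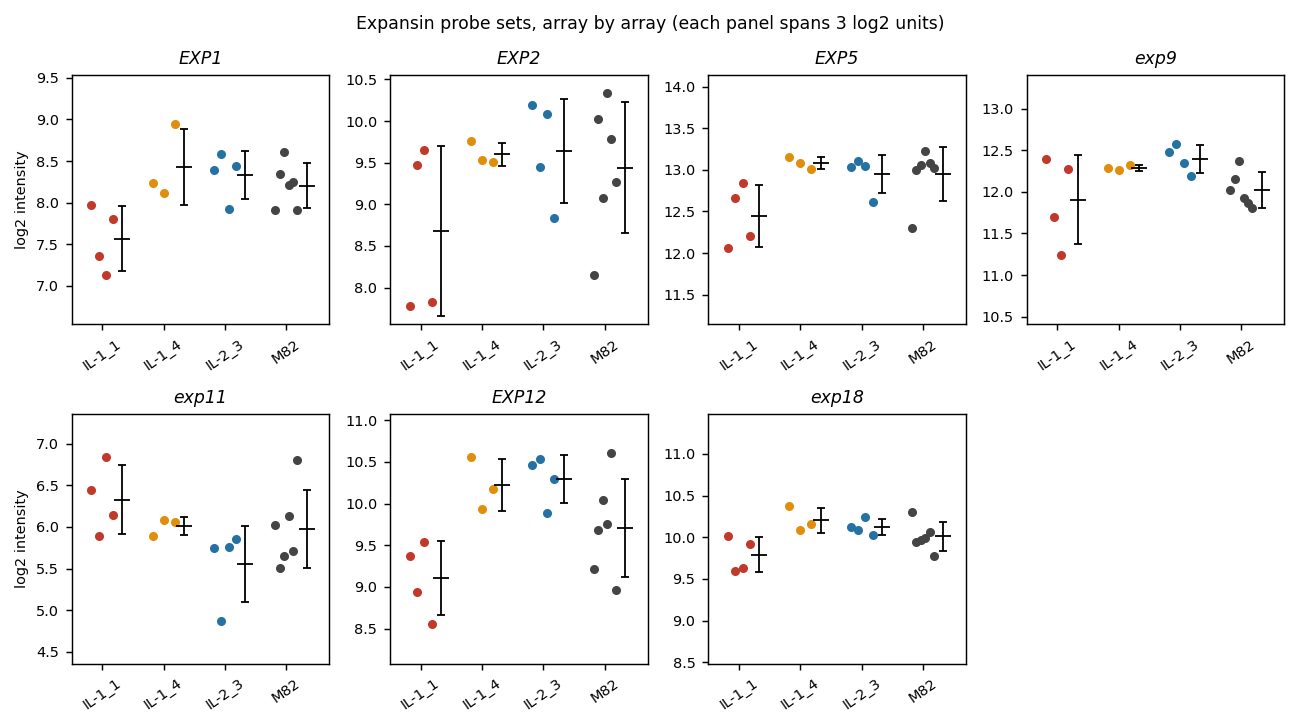
Log2 intensity of each expansin probe set on every array, by group, with the mean and SD of the group as a cross and bar beside the points; every panel spans 3 log2 units, and each has its own range. EXP12 in the 4 IL-1_1 arrays (8.55 to 9.54) lies below all IL-1_4 and IL-2_3 arrays. EXP2 spans 7.78 to 9.65 in IL-1_1 and 8.15 to 10.34 in M82.

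EXP1 had its lowest mean in IL-1_1. It measured 7.98, 7.36, 7.13 and 7.81 in the IL-1_1 arrays. The IL-1_4 arrays had 8.23, 8.11 and 8.95 and the IL-2_3 arrays 8.39, 8.58, 7.92 and 8.44, while the M82 arrays ran from 7.91 through a median of 8.23 to 8.61. All 4 IL-1_1 arrays thus lay below all IL-1_4 arrays, but the highest of them lay just above the lowest arrays of IL-2_3 and M82. Against IL-1_4 its log2 change was -0.86 ± 0.24 (SE), with a limma adjusted p of 0.0278. The change against M82 was -0.64 ± 0.21, with a limma adjusted p of 0.0545, and against IL-2_3 it was -0.76 ± 0.23 (adjusted p = 0.0662), neither of which was called. The order of the means was IL-1_4 (8.43), IL-2_3 (8.33), M82 (8.21) and IL-1_1 (7.57), and no neighbours in it differed beyond the threshold. The call against IL-1_4 was lost without IL-1_1 replicate 3, IL-1_4 replicate 1 or IL-1_4 replicate 3 (limma adjusted p 0.0522 to 0.138), and a call against IL-2_3 was gained without IL-1_1 replicate 1, IL-1_4 replicate 3 or IL-2_3 replicate 3 (0.0472 to 0.0487). A call against M82 was gained without IL-1_4 replicate 3, M82 replicate 1 or M82 replicate 6 (0.0268 to 0.0458), without the 3 arrays at the high end of the axis (-0.83, adjusted p = 0.0257) and with each array centred on its median (-0.67, 0.044).

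EXP12 had the largest log2 changes of the 7 between IL-1_1 and the other lines. It measured 9.37, 8.94, 9.54 and 8.55 in the IL-1_1 arrays. In the IL-1_4 arrays it measured 10.56, 9.94 and 10.18, and in the IL-2_3 arrays 10.46, 10.53, 9.89 and 10.30. No IL-1_1 array reached the lowest array of either line. M82 lay between them and was the most variable, from 8.96 through a median of 9.72 to 10.60, and overlapped with all 3 lines. The log2 change was -1.12 ± 0.33 against IL-1_4 (SE; limma adjusted p = 0.0322) and -1.19 ± 0.31 against IL-2_3 (adjusted p = 0.035). Against M82 the change was -0.61 ± 0.28 in IL-1_1 (limma adjusted p = 0.14), 0.52 ± 0.31 in IL-1_4 (1) and 0.58 ± 0.28 in IL-2_3 (0.999). These 3 comparisons share the M82 arrays. The first call was lost without IL-1_1 replicate 4 or without any 1 of the IL-1_4 arrays (adjusted p 0.0595 to 0.113), and the second without IL-1_1 replicate 1, 2 or 4 or IL-2_3 replicate 1 or 2 (0.0502 to 0.125).

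exp18, known from meristems, varied least of the 7. It measured 10.02, 9.59, 9.63 and 9.91 in the IL-1_1 arrays. The IL-1_4 arrays had 10.37, 10.08 and 10.16 and the IL-2_3 arrays 10.13, 10.09, 10.25 and 10.02, and the M82 arrays ran from 9.78 through a median of 9.98 to 10.30. All IL-1_1 arrays lay below every IL-1_4 and IL-2_3 array; the nearest pair of IL-1_1 and IL-2_3 arrays both read 10.02. The log2 change was -0.42 ± 0.13 against IL-1_4 (SE; limma adjusted p = 0.0382), -0.33 ± 0.12 against IL-2_3 (adjusted p = 0.119) and -0.22 ± 0.11 against M82 (adjusted p = 0.163). The call was lost without IL-1_1 replicate 2, 3 or 4 or any 1 of the IL-1_4 arrays (adjusted p 0.051 to 0.138). The change against IL-2_3 was called without the 3 arrays at the high end of the axis (-0.44, adjusted p = 0.0288).

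EXP5 was near the threshold in IL-1_1. It measured 12.06, 12.66, 12.85 and 12.20 in the IL-1_1 arrays. The IL-1_4 arrays had 13.15, 13.08 and 13.01, and the IL-2_3 arrays 13.03, 13.11, 13.04 and 12.62. The M82 arrays ran from 12.31 through a median of 13.04 to 13.23. Apart from IL-2_3 replicate 4 and M82 replicate 1, every array of the other groups lay above every IL-1_1 array. The log2 change was -0.64 ± 0.21 against IL-1_4 (SE; limma adjusted p = 0.0505), -0.51 ± 0.18 against M82 (0.0717) and -0.51 ± 0.20 against IL-2_3 (0.147), none of them called. The change against M82 was called without IL-1_1 replicate 3 (adjusted p = 0.0397) or M82 replicate 1 (0.00793). Without the 3 arrays at the high end of the axis, the changes were called against M82 (-0.51, adjusted p = 0.0133), IL-1_4 (-0.51, 0.0222) and IL-2_3 (-0.49, 0.0402). Each of these 3 arrays had the lowest EXP5 of its group, so that leaving them out narrows its spread within groups. The size of the change against M82 stayed at -0.51. The change against IL-1_4 was also called without IL-1_1 replicate 2 or 3, IL-2_3 replicate 4 or M82 replicate 1 (0.0159 to 0.0461). IL-1_4 (13.08), IL-2_3 (12.950) and M82 (12.950) had nearly the same mean.

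EXP2 was split within IL-1_1. It measured 7.78, 9.47, 9.65 and 7.83 in the IL-1_1 arrays. The arrays of the line thus formed a low and a high pair. The IL-1_4 arrays had 9.76, 9.53 and 9.51 and the IL-2_3 arrays 10.19, 9.45, 10.08 and 8.83, and the M82 arrays ran from 8.15 through a median of 9.52 to 10.34. All groups overlapped. The log2 change against M82 was -0.76 ± 0.45 in IL-1_1 (SE; limma adjusted p = 0.247), 0.16 ± 0.50 in IL-1_4 (1) and 0.20 ± 0.45 in IL-2_3 (0.999). The 95% intervals ran from -1.73 to 0.21, from -0.90 to 1.22 and from -0.77 to 1.16. The change of IL-1_1 was -0.92 ± 0.54 against IL-1_4 (limma adjusted p = 0.222) and -0.96 ± 0.50 against IL-2_3 (0.256).

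The other members, exp9 and exp11, were not called in any comparison. exp9 had its lowest mean in IL-1_1 (11.90 ± 0.54, SD, n = 4), where its arrays had 12.39, 11.70, 11.24 and 12.28. It averaged 12.29 ± 0.03 (n = 3) in IL-1_4, 12.40 ± 0.17 (n = 4) in IL-2_3 and 12.02 ± 0.21 (n = 6) in M82. Its log2 change against M82 was -0.12 ± 0.19 in IL-1_1 (SE; limma adjusted p = 0.659), 0.26 ± 0.20 in IL-1_4 (1) and 0.37 ± 0.19 in IL-2_3 (0.999). exp11 went the other way, with 6.33 ± 0.41 in IL-1_1, 6.01 ± 0.11 in IL-1_4, 5.56 ± 0.46 in IL-2_3 and 5.97 ± 0.47 in M82 (SD). Its IL-1_1 arrays had 6.44, 5.89, 6.84 and 6.14, and its IL-2_3 arrays 5.74, 4.87, 5.76 and 5.85. Every IL-1_1 array lay above every IL-2_3 array, and the log2 change was 0.77 ± 0.28 (limma adjusted p = 0.123). Every IL-1_4 array also lay above every IL-2_3 array, with a change of 0.45 ± 0.30 (adjusted p = 0.709). The mean of exp11 was among the dimmest 25% of probe sets, the only one of the 7 there.

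Over all 7 members, 0 were called in IL-1_1 against M82 (3 at an unadjusted p below 0.05), beside 12.2% of all probe sets called in that comparison. Against M82, 6 of 7 had a negative change in IL-1_1, with a median of -0.51 on the log2 scale beside -0.02 over all probe sets. In IL-1_4 0 of 7 were called (0 at an unadjusted p below 0.05), beside 0.644% of all, and the change was positive for 7, their median being 0.20 beside 0.02. In IL-2_3 0 of 7 were called (0 at an unadjusted p below 0.05), beside 0.901% of all, and the change was positive for 6, their median being 0.13 beside 0.00287.

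Between the lines, 3 of 7 members were called in IL-1_1 against IL-1_4, all lower, where 17.6% of all probe sets were called and 9.18% were called lower. In 4 of 7 the arrays of these groups did not overlap, beside 39.8% of all probe sets, and all 4 were lower, beside 22.3%. Against IL-2_3, 1 of 7 was called in IL-1_1, lower, beside 4.87% of all called and 2.53% called lower, and in 3 of 7 the arrays did not overlap, beside 11% of all. Between IL-1_4 and IL-2_3, 0 of 7 were called (0 at an unadjusted p below 0.05), beside 1.54% of all, and in 1 of 7 the arrays did not overlap, beside 17.2%. The fit gives each probe set 1 spread for all groups; with only the IL-1_1 and IL-1_4 arrays fitted, EXP12 kept its call and EXP1 (adjusted p = 0.0699) and exp18 (0.0805) did not. Without the 3 arrays at the high end of the within-group axis, 2 of 7 were called in IL-1_1 against M82 (EXP1 and EXP5), 4 against IL-1_4 (EXP1, EXP5, EXP12 and exp18) and 3 against IL-2_3 (EXP5, EXP12 and exp18). The 3 arrays were chosen after the data were seen. Without the 2 arrays with the highest 3-prime to 5-prime differences of control probe sets (IL-1_4 replicate 1 and M82 replicate 5), 0 of the 7 were called against IL-1_4. The shares of all probe sets in this paragraph belong to the fit of all 17 arrays. None is given for the fits of fewer arrays. Whether the expansins gained or lost calls more than other probe sets therefore cannot be told.

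**Figure D2:**
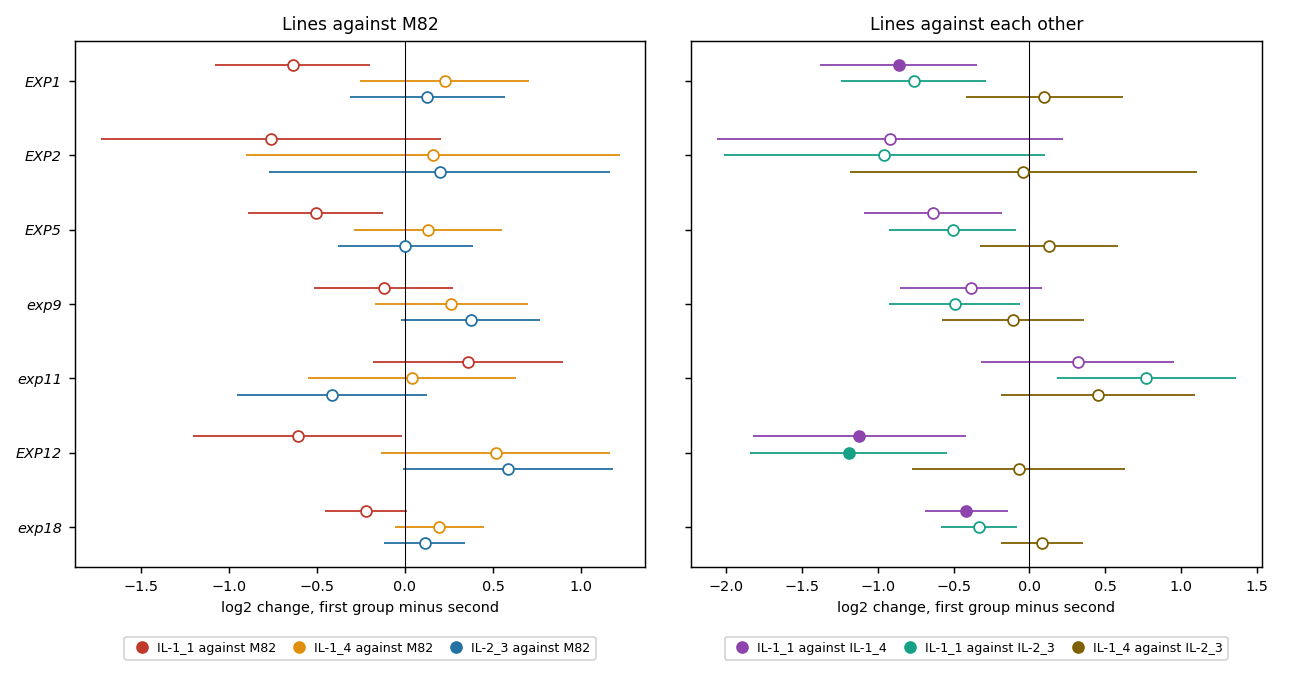
Log2 change of each expansin between groups, first group minus second, with its 95% interval from the limma fit; filled points were called at a false discovery rate of 0.05 and open points were not. The 3 intervals of IL-1_1 against IL-1_4 at EXP1, EXP12 and exp18, and that of EXP12 against IL-2_3, belong to the only called members, and all 4 lie below 0.

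The members differed widely in their spread between arrays of a group. The within-group SD was 0.756 for EXP2, larger than that of 95.5% of all probe sets, and 0.164 for exp18, larger than 31.2%. It was 0.460 for EXP12, 0.417 for exp11, 0.336 for EXP1, 0.300 for exp9 and 0.291 for EXP5, beside a median of 0.224 over all probe sets. IL-1_4 had the smallest SD at EXP2 (0.14), EXP5 (0.07), exp9 (0.03) and exp11 (0.11), and at EXP1 the largest (0.45).

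EXP2 and EXP5 went up and down together from array to array. Their deviations from the group means had a Pearson r of 0.894 and a Spearman rho of 0.75 over 17 arrays (two-sided permutation tests within groups, adjusted over the 21 pairs of members, p = 0.0223 and p = 0.161). Without the 2 arrays farthest from the median of EXP2, r was 0.841, and within the 6 M82 arrays it was 0.863. EXP1 and exp9 were the other pair, with r = 0.703 and rho = 0.708 (permutation adjusted p = 0.0224 and 0.116), 0.729 without the 2 farthest arrays and 0.769 within M82. Neither rank correlation passed the threshold after adjustment. Of the remaining 19 pairs none passed it on either measure, and the strongest of them on Pearson's measure was EXP5 with exp18 (r = -0.61, rho = -0.38), where r was -0.222 without the 2 farthest arrays. Without the 3 arrays at the high end of the axis, a setting chosen after the data were seen, r was 0.778 for EXP2 with EXP5 and 0.72 for EXP1 with exp9. EXP2 and EXP5 both followed that axis, as described next. How many pairs among all probe sets correlate as strongly was not counted, so such a correlation may not be particular to these members.

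The same arrays were low in EXP2 and EXP5 and high on the main axis of variation within groups. Deviations of EXP2 had an r of -0.905 and a rho of -0.904 with the array scores on that axis (permutation adjusted p = 0.00203 and 0.00168 over 7 members), and -0.845 without the 2 arrays of the most extreme score. For EXP5 they were -0.876 and -0.792 (0.0049 and 0.0143), and -0.733. The r was -0.793 for EXP2 and -0.522 for EXP5 without the 3 arrays at the high end. IL-1_1 replicate 1 (score 35.7), IL-2_3 replicate 4 (32.2) and M82 replicate 1 (51.1) each had the lowest EXP2 and the lowest EXP5 of its group. The other 5 members had r between -0.353 and 0.448 with the axis and none passed the threshold. The axis was drawn from these deviations of every probe set, the expansins included, and holds 47.3% of their variance. Strong correlations with it may therefore not be particular to EXP2 and EXP5, and the share of all probe sets that has them was not counted. Its sign was set so that EXP2 falls along it. The 3 photosynthesis markers (CAB4, CAB5 and CAB6A, chlorophyll-binding proteins) had their lowest summed levels on the same 3 arrays, 12.6 in IL-1_1 replicate 1, 12.8 in IL-2_3 replicate 4 and 11.95 in M82 replicate 1, beside 13.2 to 14.5 on the other 14 arrays. Of 6 seed marker symbols 2 were on the array, MAN1 and HSP17.4. Their summed level was highest on IL-1_1 replicate 1 (6.87) and M82 replicate 1 (7.05), beside 5.86 to 6.44 elsewhere. It was not high on IL-2_3 replicate 4 (6.18). MAN1 lay between 4.56 and 5.18 on all 17 arrays, while HSP17.4 reached 6.67. The high sums thus lay mainly in HSP17.4 and are not a rise shared by both symbols. What part these markers have in the levels of EXP2 and EXP5 was not tested. With the 3-prime to 5-prime difference of control probe sets, a measure of RNA quality, the r of EXP2 was -0.169 and that of EXP5 -0.146 (permutation adjusted p = 0.755 for each, over 7 members). Without the 2 arrays farthest from the median of that difference they were -0.565 and -0.533, so these values rest on a few arrays.

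**Figure D3:**
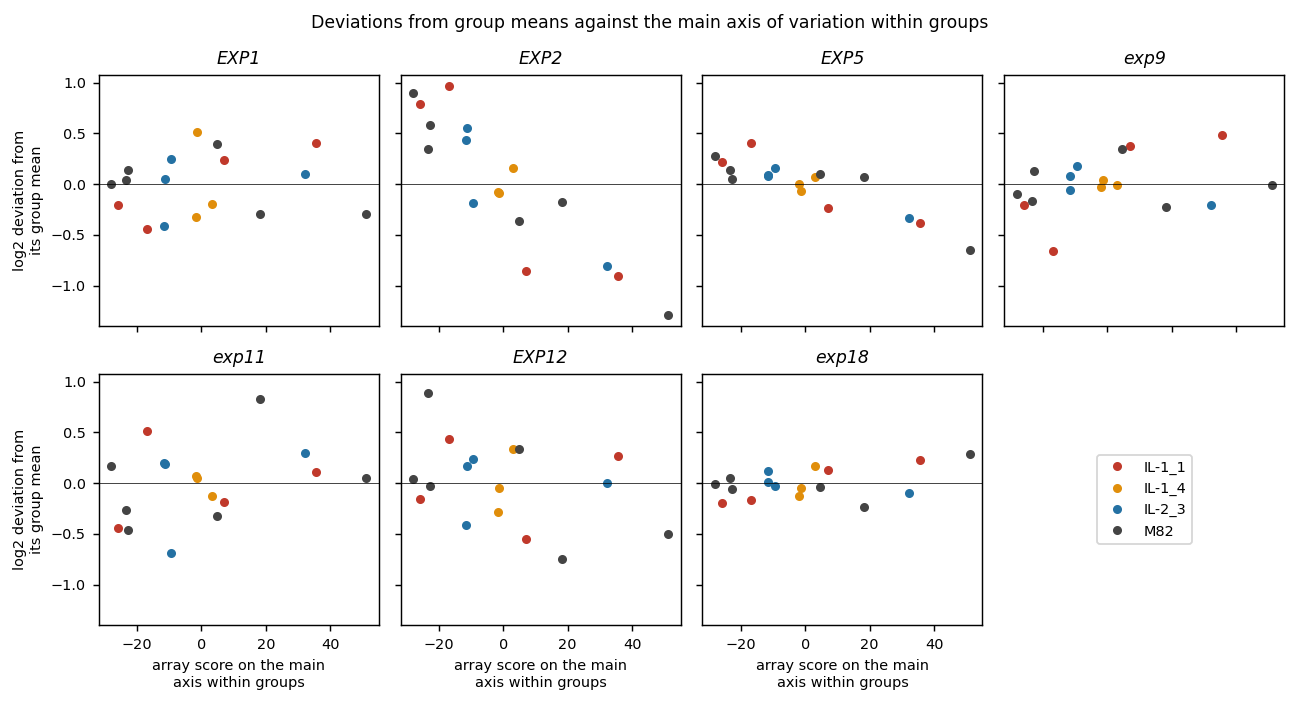
Deviation of each expansin from its group mean (log2 units) against the score of the array on the main axis of variation within groups (log2 units, centred within each group); each point is an array, coloured by group. EXP2 and EXP5 fall along the axis (r = -0.905 and r = -0.876), and the other 5 members spread without such an order. The sign of the axis was set so that EXP2 falls along it.

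The named genes most like each member over the 17 arrays were chosen by Pearson correlation of log2 values among 908 other probe sets with a symbol, as a description with no test. For EXP2 they were HRBP1 (r = 0.958) and LOC543968 (0.944), and for EXP5 GPI1 (0.973) and TUB (0.973), which also follow them within groups (0.944, 0.929, 0.967 and 0.959). For exp9 they were cel7, an endoglucanase gene (0.818), and EXP1 (0.725). For EXP1 they were TAO2 (0.78) and EXPA10 (0.775), and for EXP12 EXPA10 (0.827) and MAF1 (0.789). For exp11 they were tft4 (0.771) and sus3 (0.754), and for exp18 LOC543970 (0.767) and CGI1 (0.759). These values hold differences between groups as well as within them: within groups r was lower for EXP12 with EXPA10 (0.58) and higher for exp9 with cel7 (0.879).

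Among the EXPA symbols, EXPA10, a member known from germinating seed, was the one that separated IL-1_1 most clearly. It measured 7.02, 7.10, 6.74 and 6.99 in the IL-1_1 arrays. The IL-1_4 arrays had 8.13, 7.79 and 8.12 and the IL-2_3 arrays 7.84, 8.11, 7.99 and 7.64, and the M82 arrays ran from 6.78 through a median of 7.66 to 7.87. All IL-1_1 arrays lay below all IL-1_4 and IL-2_3 arrays, and 1 M82 array, replicate 6, lay among them. The log2 change was -1.06 ± 0.22 against IL-1_4 (SE; limma adjusted p = 0.00604) and -0.93 ± 0.20 against IL-2_3 (adjusted p = 0.0121), and both calls were kept with any 1 array left out (highest adjusted p 0.0332 and 0.0488). Against M82 it was -0.57 ± 0.18 (adjusted p = 0.0536), and it was called without M82 replicate 1 (0.0326), without M82 replicate 6 (0.00431) or with each array centred on its median (0.0424). EXPA10 was among the dimmest 25% of probe sets.

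EXPA3 went the other way. It averaged 12.24 ± 0.16 (SD, n = 4) in IL-1_1, 11.81 ± 0.03 (n = 3) in IL-1_4, 12.04 ± 0.19 (n = 4) in IL-2_3 and 11.94 ± 0.19 (n = 6) in M82. The log2 change of IL-1_1 was 0.43 ± 0.13 against IL-1_4 (SE; limma adjusted p = 0.0376) and 0.30 ± 0.11 against M82 (adjusted p = 0.0827). Every IL-1_1 array lay above every IL-1_4 array. The call was lost without IL-1_1 replicate 1 or 4 or any 1 of the IL-1_4 arrays (0.0734 to 0.113), and a call against M82 was gained without M82 replicate 1 (0.0235). EXPA4, both probe sets of EXPA6 and EXPA8 had changes of 0.25, -0.01, 0.38 and 0.00345 in IL-1_1 against M82, with adjusted p of 0.406, 0.96, 0.598 and 0.984. Of the 6 EXPA probe sets limma called 0 against M82 in any line (at an unadjusted p below 0.05, 2 for IL-1_1 and 1 for each of the other lines). Among all probe sets the share called against M82 was 0.644% for IL-1_4, 0.901% for IL-2_3 and 12.2% for IL-1_1. At an unadjusted p below 0.05 these shares were 3.52%, 4.66% and 33.5%, in the same order. Counts out of 6 are too small to set the EXPA probe sets apart from the rest.

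Expansins act beside enzymes that cut and rejoin wall polymers, and 40 probe sets of 5 such lists were set beside them. In IL-1_1 against M82, 5 of 40 were called higher and 5 lower, beside 6.4% and 5.81% of all probe sets. In IL-1_4 and in IL-2_3, 0 of 40 were called by limma, beside 0.644% and 0.901% of all probe sets. At an unadjusted p below 0.05 there were 0 and 7 of the 40, beside 3.52% and 4.66% of all. The counts and medians that follow are for IL-1_1 against M82. The xyloglucan list had 3 of 14 called higher, 0 lower and a median of 0.16, and the endoglucanase list 0 of 6 called (0 at an unadjusted p below 0.05), all 6 negative, with a median of -0.36. The pectin list had 4 of 10 called lower and a median of -0.31, the beta-galactosidase list 2 of 7 called higher and a median of -0.29, and the mannanase list 1 of 3 called lower and a median of -0.16.

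**Figure D4:**
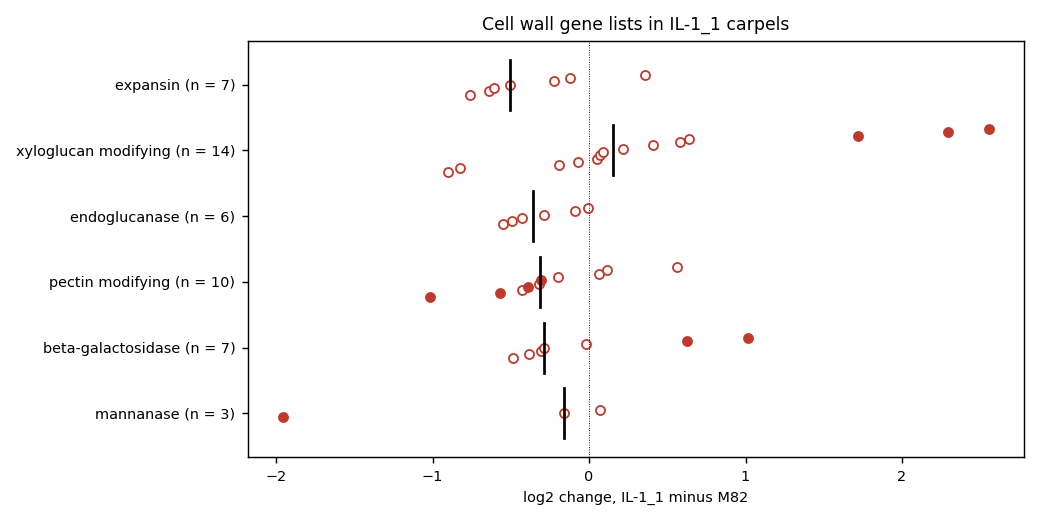
Log2 change in IL-1_1 against M82 for each probe set of the expansins and of 5 lists of other cell wall genes; filled points were called at a false discovery rate of 0.05, and the black bars are the medians of the lists. The expansins have a median of -0.51 and no call, and the 3 called probe sets of the xyloglucan list lie above 1.7.

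The xyloglucan genes called higher in IL-1_1 against M82 were tXET-B2 (2.56), XTH3 (2.29) and BR1 (1.72), all of the xyloglucan endotransglycosylase type, which cut and rejoin xyloglucan. Of pectin genes XOPG1, a polygalacturonase by its symbol, averaged 9.11 ± 0.04 in IL-1_1 (SD, n = 4) and 9.68 ± 0.15 in M82 (n = 6), and its fall of -0.57 ± 0.08 (limma adjusted p = 0.000322) was kept in all alternatives run. The pectin methylesterase genes PME2.1 (-1.02), PE1 (-0.39) and PMEU1 (-0.31) fell too, the beta-galactosidase genes TBG3 (1.02) and TBG2 (0.62) rose, and the mannanase gene MAN2 fell (-1.95). Apart from XOPG1, their limma adjusted p ran from 0.00613 for tXET-B2 to 0.0436 for BR1. PME2.1 and MAN2 were also lower in IL-2_3 than in M82, though not called. Their changes there were -0.95 ± 0.23 (SE; limma adjusted p = 0.0849) and -1.40 ± 0.59 (0.897). In IL-1_4 against M82 they were -0.10 and 0.15. The other genes called in these lists had changes from -0.23 (XOPG1) to 0.19 (TBG2) in IL-2_3. The calls of tXET-B2 and XOPG1 held with any 1 array left out. That of XTH3 did not hold when IL-1_1 replicate 1 or 4 was left out (adjusted p up to 0.085), nor that of PME2.1 when IL-1_1 replicate 4 was (0.0532). PE1 lost its call on leaving out IL-1_1 replicate 1, 3 or 4, or M82 replicate 3 or 5 (up to 0.0896). TBG2 lost it on leaving out IL-1_1 replicate 1 or 4, or M82 replicate 2, 4 or 5 (up to 0.0917). PMEU1 did so for IL-1_1 replicate 1 or 4, or M82 replicate 2, 3 or 4 (up to 0.104). MAN2 was not called when IL-1_1 replicate 1, 3 or 4, IL-1_4 replicate 1, or M82 replicate 2, 3, 5 or 6 was left out (up to 0.131). TBG3 was not called when IL-1_1 replicate 1, 3 or 4, IL-1_4 replicate 2 or 3, or any M82 array but replicate 1 was left out (up to 0.0902). BR1 was called only when the array left out was IL-2_3 replicate 3 or 4, or M82 replicate 1 or 6 (otherwise up to 0.12). With only the IL-1_1 and M82 arrays fitted, PME2.1, PE1, PMEU1, TBG2, TBG3, MAN2 and BR1 were not called (adjusted p 0.0563 to 0.104), and without the 2 arrays of highest 3-prime to 5-prime difference XTH3, BR1, PE1, PMEU1, TBG2, TBG3 and MAN2 were not (0.0512 to 0.109). MAN2 was also not called without the 3 arrays at the high end of the axis (-1.71, adjusted p = 0.108). In the endoglucanase list the smallest p was that of Cel2 (-0.49 ± 0.28, adjusted p = 0.228).

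Genes tied to the setting in which expansins work were described from 4 further lists. The plasma membrane proton pumps LHA1 and LHA2 acidify the wall, and 0 of these 2 were called in any line (0 at an unadjusted p below 0.05). The share of all probe sets called against M82 was largest for IL-1_1, at 12.2% (33.5% at an unadjusted p below 0.05). A count of 0 of 2 therefore does not set the pumps apart from other probe sets. Their smallest p was that of LHA2 in IL-2_3 (-0.07 ± 0.06, limma adjusted p = 0.999). Aquaporins let water into the growing cell. In IL-1_1 against M82 1 of 4 was called higher, pip1 (1.59 ± 0.37, adjusted p = 0.0146), and 1 lower, Aqp2 (-0.39 ± 0.11, adjusted p = 0.0331), beside 6.4% and 5.81% of all probe sets. That pip1 is an aquaporin rests on its symbol alone, and the list holds LePIP1 (-0.65) as another entry. The call of pip1 was lost without IL-1_1 replicate 4 (0.0626) and that of Aqp2 on leaving out IL-1_1 replicate 1 or 3, or M82 replicate 2, 3 or 4 (up to 0.0953). Both were lost with only the IL-1_1 and M82 arrays fitted (0.0683 and 0.111), and Aqp2 also without the 3 arrays at the high end of the axis (0.0784) and without the 2 of highest 3-prime to 5-prime difference (0.0505). Of 14 auxin response probe sets, 1 was called higher in IL-1_1, a probe set of IAA7 (1.02 ± 0.19, adjusted p = 0.00472), beside 6.4% of all probe sets. The other probe set of IAA7 had a change of 0.26 in IL-1_1 (limma adjusted p = 0.0508) and was not called. In IL-2_3, where 0.901% of all were called, 1 of the 14 was called lower, a probe set of ARF3 with 5.23 ± 0.41 in IL-2_3 (SD, n = 4) and 10.24 ± 0.32 in M82 (n = 6). The other probe set of ARF3 had a change of -0.07 there. Of 5 gibberellin genes 0 were called in any line (1 in IL-1_1 and 0 in the other lines at an unadjusted p below 0.05), beside 12.2% of all called in IL-1_1; the smallest p was that of the gibberellin oxidase gene 20ox-2 in IL-1_1 (-0.97 ± 0.33, adjusted p = 0.0618), which was called without IL-1_1 replicate 1 (0.0476) or M82 replicate 1 (0.00852) and without the 3 arrays at the high end of the axis (-1.46, 0.00408).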

How the data were processed

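The log2 values are probe set intensities as the authors processed and deposited them, 1 column per array. The submitters' processing notes name affy; the version, the background step and the summary method are not stated there. The base of the log was taken to be 2 because values ran from 3.31 to 14.75. Of 10209 probe sets, 108 controls were left out. Symbols come from the platform annotation of 2007; genome positions and sequences were not analysed here. A limma fit (version 3.58.1, R 4.3.3) over all 17 arrays, with 1 mean for each of 4 groups and no covariate, gave 6 comparisons. Its two-sided moderated tests had Benjamini-Hochberg adjustment over 10101 probe sets and were called at a false discovery rate of 0.05, with intervals at 95%; the fit was tested on simulated data. Correlations of deviations from group means were tested with 100000 permutations within groups. Precision is limited by how many arrays each group has. Alternatives were median centring, a filter on dim probe sets, array weights, fits of 2 groups, a replicate block, the within-group axis as a covariate and left-out arrays. The members, the lists and the rules were chosen with earlier results of these data known. Genes named beside the members are the 2 most correlated with each, all EXPA symbols, and up to 4 called members of each list by smallest adjusted p in a line against M82, or the member of smallest p where none was called.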

Additional observations from a re-analysis of the deposited data

Results flagged for a closer look

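A single array lay far from the rest of its group in 3 of 39 sets of values examined, over the 7 expansin and 6 EXPA probe sets in IL-1_1, IL-2_3 and M82; chance alone gives such gaps in about 5% of sets. EXP5 was 12.62 in IL-2_3 replicate 4, where the nearest array of the line had 13.03. It was 12.31 in M82 replicate 1, where the nearest array had 13.00. These arrays had the highest scores of their groups on the main axis of variation within groups (32.2 and 51.1). exp11 was 4.87 in IL-2_3 replicate 2, where the nearest array had 5.74.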

How the results depend on the processing

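The count of expansins called in IL-1_1 against M82, 0 in the report, was 1 with each array centred on its median, 3 with array weights, 3 with the within-group axis as a covariate and 2 without the 3 arrays at the high end of that axis. Leaving out 1 array at a time gave 0 to 2, with 2 without M82 replicate 1, and 1 without IL-1_1 replicate 3, IL-1_4 replicate 3 or M82 replicate 6. Against IL-1_4 the count, 3 in the report, was 1 with only those arrays fitted, 5 with weights, 5 with the axis and 0 without the 2 arrays of highest 3-prime to 5-prime difference. It ran from 0 to 4 with 1 array left out, 0 without IL-1_4 replicate 1 or 3 and 1 without IL-1_1 replicate 4 or IL-1_4 replicate 2. Against IL-2_3 the count, 1 in the report, was 5 with weights, 6 with the axis and 3 without the 3 arrays, and 0 to 2 with 1 array left out, 0 without IL-1_1 replicate 2 or 4 or IL-2_3 replicate 1 or 2 and 2 without IL-1_4 replicate 3 or IL-2_3 replicate 3. The axis was derived from the residuals of the same fit, so that using it as a covariate leaves the changes as they are and narrows their errors by construction. For the other shifts the cause was not tested, beyond the smaller number of arrays in the fits that leave arrays out. The counts for IL-1_4 against M82, IL-2_3 against M82 and IL-1_4 against IL-2_3 were 0 in all 25 alternatives. The share of all probe sets called in each alternative is not given. The counts here and with the replicate block thus do not tell whether the expansins differ from other probe sets.

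Of 21 pairs of same-numbered arrays in different groups, 10 had deviations that correlated above 0.1 (range -0.705 to 0.605), so the replicate numbers were not taken to pair samples. With the replicate number as a block, the expansins called numbered 0 in each line against M82, 2 in IL-1_1 against IL-1_4, 1 against IL-2_3 and 0 between IL-1_4 and IL-2_3. The block left EXP1 (-0.89, limma adjusted p = 0.0567) and EXPA3 (0.39, 0.061) uncalled against IL-1_4, and EXPA10 was called against M82 (-0.67, 0.0247). Of the list genes called in IL-1_1 against M82, the block left BR1 (0.0638), PE1 (0.0941), PMEU1 (0.0885), TBG2 (0.0721), TBG3 (0.121), MAN2 (0.108), pip1 (0.0566) and Aqp2 (0.0558) uncalled. Array weights left PE1 (0.0776) and MAN2 (0.193) uncalled.

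The log2 changes that turned sign in an alternative were not called in the report or in that alternative; the largest in the report was that of the brighter EXPA6 probe set in IL-1_1 against M82 (0.38). With median centring, EXPA8 in IL-1_1 against M82 was -0.027 and EXP5 in IL-2_3 against M82 was -0.019. With weights, the brighter EXPA6 probe set was -0.067 in IL-1_1 against M82, EXP2 -0.23 and EXP5 -0.0039 in IL-1_4 against M82, and EXP5 -0.036 in IL-2_3 against M82. Without the 3 arrays, that EXPA6 probe set was -0.19, EXP2 in IL-1_4 -0.10 and EXP5 in IL-2_3 -0.017. Without the 2 arrays, the dimmer EXPA6 probe set was 0.039 in IL-1_1 against M82, and exp18 was -0.00053 in IL-1_4 against IL-2_3. With 1 array left out, the changes in IL-1_1 against M82 ran from -0.28 to 0.10 for exp9, -0.22 to 0.17 and -0.092 to 0.61 for the dimmer and brighter EXPA6 probe sets and -0.060 to 0.054 for EXPA8. In IL-1_4 against M82 they ran from -0.034 to 0.39 for EXP1, -0.099 to 0.34 for EXP2 and -0.054 to 0.20 for exp11. In IL-2_3 against M82 they ran from -0.060 to 0.47 for EXP2 and -0.13 to 0.11 for EXP5. In IL-1_4 against IL-2_3 they ran from -0.16 to 0.26 for EXP1, -0.31 to 0.15 for EXP2, -0.24 to 0.075 for EXP12 and -0.00053 to 0.14 for exp18.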

Other observations

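The probe sets of EXPA4 and EXPA6 were high on the same few arrays. EXPA4, a member known from germinating seed, measured 11.11 in IL-1_1 replicate 1 and 11.52 in IL-2_3 replicate 1, while the other 15 arrays ran from 10.07 to 10.67. The brighter EXPA6 probe set measured 9.64 and 9.94 on those arrays and 9.09 in IL-2_3 replicate 2, and between 7.29 and 8.31 on the remaining arrays. The dimmer EXPA6 probe set had 6.18 and 6.26 on the same pair and at most 5.85 elsewhere. These arrays were picked after their values were seen, and no test was made.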
